A study of Mus musculus with 10 samples.

Results

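The chemokine system was examined in RNA-seq libraries of mouse intestinal organoids. The genes were chosen by name alone: a symbol of Ccl, Cxcl, Cx3cl, Xcl, Ccr, Cxcr, Cx3cr or Xcr followed by a number and an optional letter. Of 47069 genes in the table, 62 met this rule, 44 of them ligands and 18 receptors. They carried 57 distinct symbols, since Ccl21a, Ccl21c and Ccl27a are listed at more than 1 position. At least 1 read was counted for 54 of them, and 8 had no count in any library. Of those 8, 6 lie on unplaced scaffolds and are further copies of Ccl21a, Ccl21c or Ccl27a, and the others are Ccl21b and Ccl27b on chromosome 4. The copies are nearly identical, so reads could have been split or dropped between them and the levels of Ccl21a and Ccl27a are uncertain. The filter on low counts left 46 genes for testing. Ccr3, Ccr8, Cxcr1, Cxcl15, Cxcl3, Ccl1, Ccl26 and Cxcl17 had reads but did not pass it.

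The cultures came from C57BL/6 intestine and were kept for 50 days in Matrigel with EGF, Noggin and R-spondin 1, in 5 groups of 2 libraries. The groups follow the labels. Control organoids are labelled with saline, and the group called DMBA with the carcinogen DMBA, Long. TAM short and TAM long are labelled Dosage-sensitive TAM, short or Long, where TAM stands for tamoxifen, and DMBA+TAM is labelled with both agents. The titles of the libraries (NS for control, NL for DMBA, DSS_S and DSS_L for TAM short and TAM long, Lgr5 for DMBA+TAM) do not spell these treatments, so a treatment is known here only from its label. The study's methods name mice with Lgr5-EGFP-CreERT2 and Ppp2r1a flox/flox, in which tamoxifen activates a Cre driven by the Lgr5 promoter. Loss of Ppp2r1a, the scaffold subunit of the phosphatase PP2A, can thus start only in cells that express Lgr5. The labels of single libraries give no genotype, and nothing says that replicates came from separate animals, so p-values measure the spread between these libraries, which may be technical. Levels are given as normalized CPM, which is counts per 1000000 of the library total after TMM scaling.

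Chemokines are small secreted proteins that guide migrating cells along gradients, and they signal through receptors coupled to G proteins. CC and CXC ligands are named after the spacing of their first cysteines. In the gut, the epithelium makes chemokines such as Ccl25 and Ccl28 that draw lymphocytes carrying Ccr9 or Ccr10. Fibroblasts, macrophages and endothelial cells make others, which recruit monocytes, neutrophils and eosinophils.

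The library totals were 8828247 to 10923673 counts in 4 of the groups, and 1592366 and 1915270 in DMBA+TAM. There 3 counts correspond to 1.58 and 1.32 normalized CPM, against 0.259 to 0.379 elsewhere, so low genes were measured least precisely in DMBA+TAM. Ppp2r1a, the gene targeted by Cre, stood at 126 ± 4.56 normalized CPM in control, 160 ± 10.3 in DMBA, 139 ± 11.9 in TAM short, 163 ± 8.09 in TAM long and 131 ± 2.63 in DMBA+TAM (SD, n = 2). It was thus not lower than control in any group labelled with tamoxifen. Against control its log2 fold change was 0.34 in DMBA (edgeR adjusted p = 0.0291) and 0.37 in TAM long (adjusted p = 0.0213). It was 0.14 in TAM short (adjusted p = 0.459) and 0.06 in DMBA+TAM (adjusted p = 0.687). DMBA+TAM was below DMBA by -0.29 on the log2 scale (edgeR adjusted p = 0.0575) and below TAM long by -0.31 (adjusted p = 0.0403). These 2 were thus groups in which Ppp2r1a was called higher than in control. Counts are sums over whole genes and do not single out the deleted exons. Markers of the labelled tissue were nearly absent from DMBA+TAM: 10 epithelial genes such as Epcam, Cdh1 and Vil1 summed to 41.0 and 45.4 normalized CPM, against 17232 to 27374 in the other 8 libraries. In the same libraries 10 fibroblast genes summed to 34914 and 35873 (689 to 2439 elsewhere), 12 macrophage genes to 7513 and 7964 (232 to 455 elsewhere) and 7 endothelial genes to 699 and 734 (82.9 to 141 elsewhere). The libraries also differed by gut segment. Small intestine markers (10 genes) summed to 20458 to 41723 in control and TAM short and to 459 to 1054 in DMBA and TAM long, and colon markers (6 genes) to 505 to 605 and to 3366 to 12722. This split goes with the letters S and L in the titles of these libraries, so in these 4 groups treatment and segment cannot be told apart wherever the letters differ. In bulk RNA, fewer cells of a type and less RNA per cell cannot be told apart, and the part of these marker differences in the chemokine results was not tested.

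**Figure D1:**
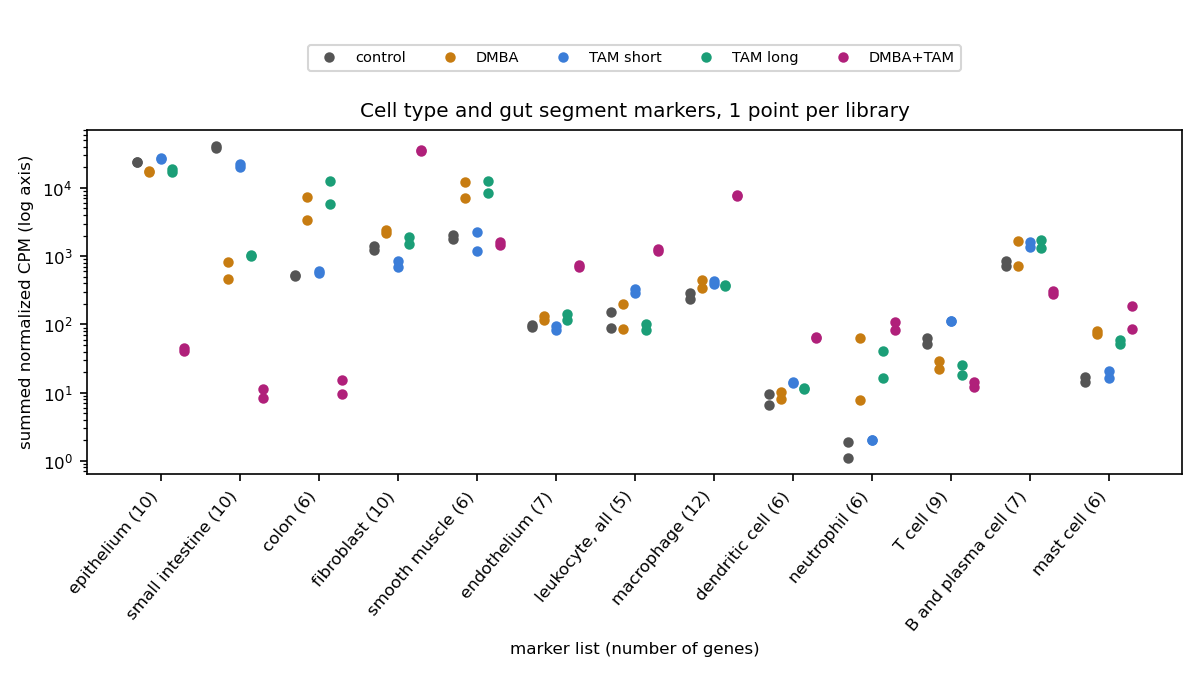
Summed normalized CPM (y axis, log scale) of 13 marker lists (x axis, number of genes in brackets), with 1 point per library coloured by group. The DMBA+TAM libraries sit at 41.0 and 45.4 for epithelium and at 7513 and 7964 for macrophages.

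DMBA+TAM had higher levels than control for most chemokine genes that could be tested. Of 46 tested genes, 29 rose and 9 fell at an adjusted p under 0.05 (quasi-likelihood test of edgeR, p adjusted by Benjamini-Hochberg over all 16179 genes tested). Over all genes the shares called were 29% higher and 35.3% lower, and among the chemokine genes they were 63% and 19.6%. Cxcl1, Cxcl2, Cxcl5, Ccl3, Ccl17 and Cxcr2 had at most 1.02 normalized CPM outside DMBA+TAM and passed the filter on low counts through DMBA+TAM. The filter thus selected them in the group where they are high. The counts, shares and medians given here include them and were not computed without them. The median log2 fold change was 2.77 for the chemokine genes and -0.17 for all genes. Scaling by library size alone moved the median of all genes by 0.48 and gave 29 rises and 7 falls among the chemokine genes. The split of all called genes turned with it, from 45.1% higher to 62.5% higher. Against DMBA, 30 rose and 3 fell (25.2% and 29.9% over all genes), against TAM long 29 and 3 (25.3% and 29.9%), and against TAM short 26 and 11 (29.3% and 33.8%). The median of the chemokine genes in these was 2.40, 2.72 (2.65 with genes at 0 in 1 group set to their bound) and 1.57. With library size scaling the share of higher genes among all called went from 45.7% to 54.8% against DMBA, from 45.9% to 54.3% against TAM long and from 46.4% to 61.5% against TAM short, and the chemokine genes then split 30 to 3, 29 to 2 and 27 to 9. These 4 comparisons share the DMBA+TAM libraries. DMBA+TAM exceeded all 4 other groups for 26 genes, or 56.5% of those tested, against 18.4% of all genes. The 26 include the genes named above that passed the filter through DMBA+TAM. DMBA+TAM was below all 4 for Ccl28 and Ccl21a (19.5% of all genes). Of the 26, 5 lost at least 1 of these calls with a library left out. They were Ccl4 against TAM short (adjusted p of 0.0728 to 0.139 in each of 4 leave-outs), Ccl22 against TAM short (0.0628 to 0.175 in 3), Ccl6 against DMBA (0.0768 to 0.0902 in 3), and Ccr7 and Cxcr3, whose values are given with these genes.

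The other comparisons called fewer genes. Between DMBA and control, 8 rose and 7 fell, against 24.5% and 23.3% of all genes, and between TAM long and control 10 rose and 7 fell, against 23.2% and 22.8%. With scaling by library size alone these splits were 13 to 5 and 14 to 5, while the share of higher genes among all called went from 51.2% to 71.2% and from 50.5% to 72.1%, and the median of all genes moved by 0.31 and 0.32. Between TAM short and control, 9 rose and 2 fell, against 6.52% and 7.8% of all genes, and with library size scaling 10 rose and 2 fell while the share of higher genes among all called went from 45.5% to 58.6%. Between TAM long and DMBA, 1 rose and 1 fell, against 1.24% and 1.46%. Ccr6, Xcl1 and Ccl27a were called in no comparison, and the other 43 tested genes in at least 1.

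**Figure D2:**
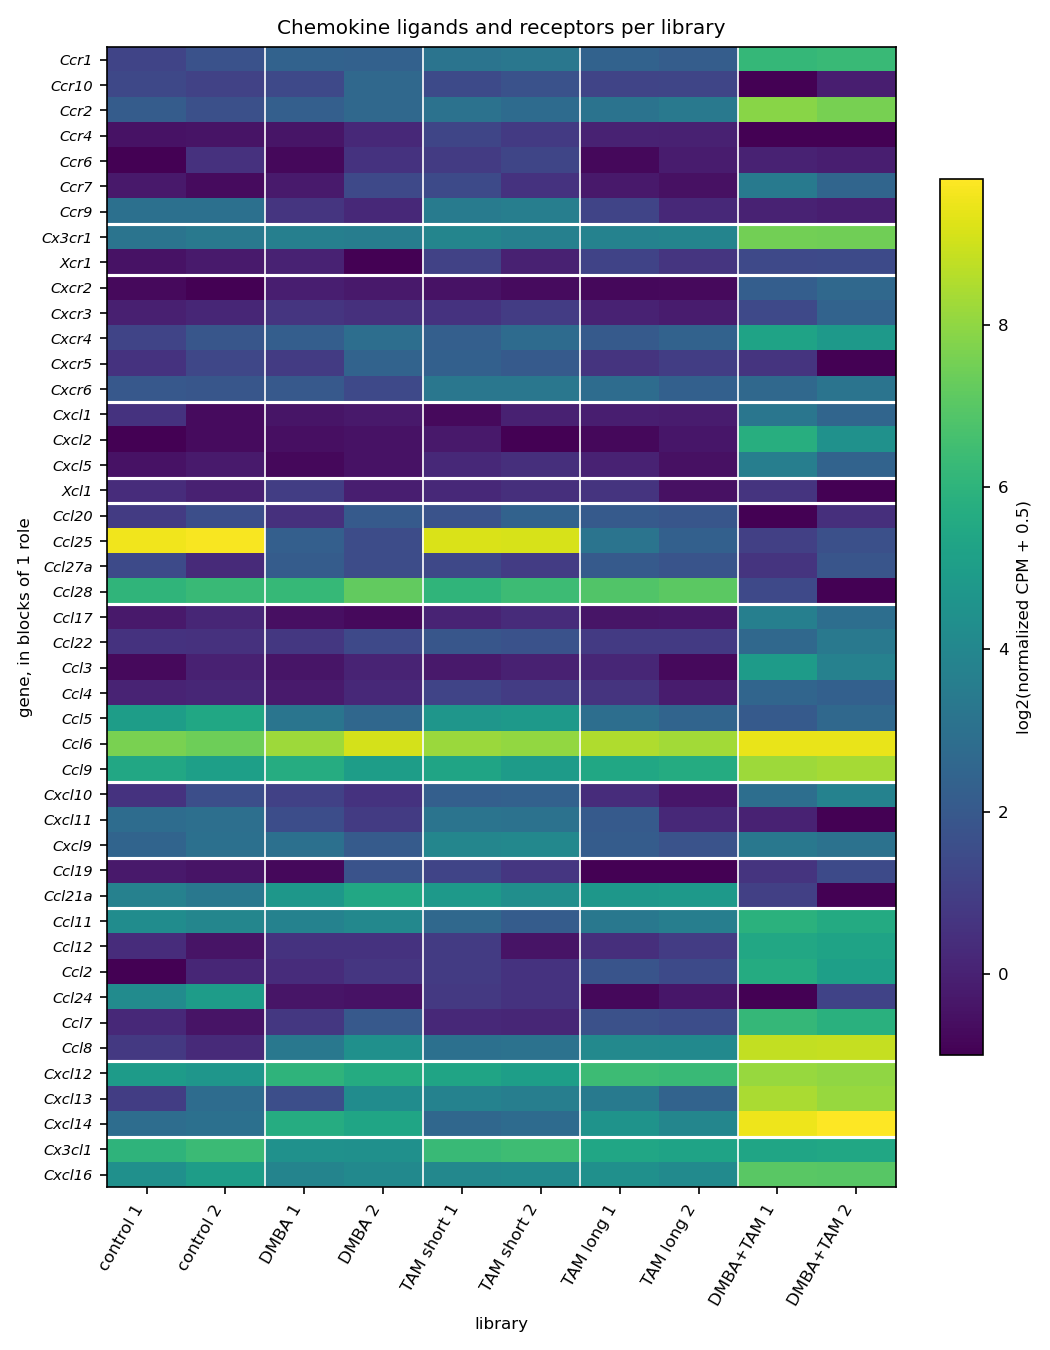
Log2(normalized CPM + 0.5) of the tested chemokine genes reported here (y axis, in blocks by role) in each of the 10 libraries (x axis). The colour of Ccl25 is brightest in control and TAM short, and the DMBA+TAM columns are bright for Ccl8, Cxcl14, Cxcl13, Ccr2 and Cx3cr1.

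**Figure D3:**
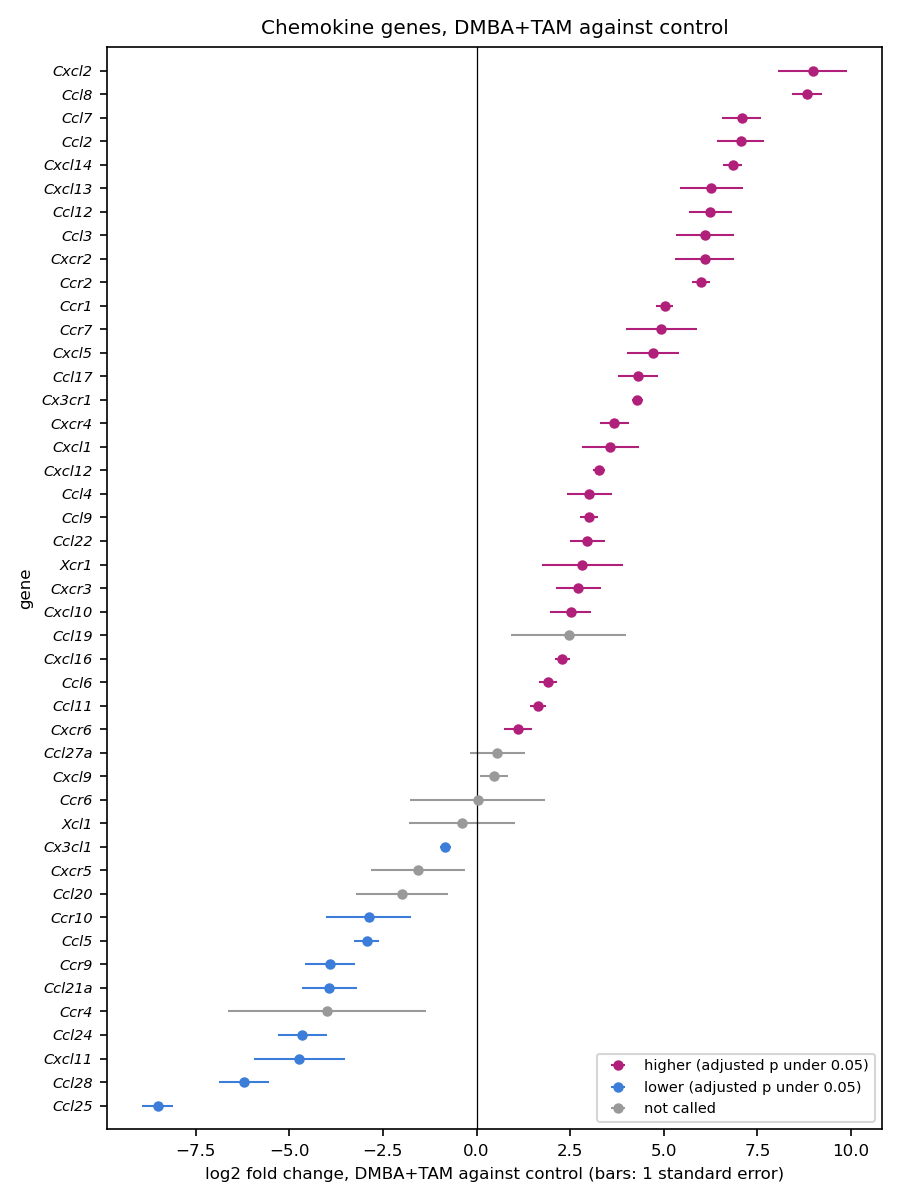
Log2 fold change in DMBA+TAM against control (x axis) of the tested chemokine genes reported here (y axis, sorted); bars are 1 standard error and colours show the call. Genes called higher run from Cxcr6 at 1.10 to Cxcl2 at 8.97, and 9 are called lower, down to Ccl25 at -8.52.

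Of the epithelial CC ligands, Ccl25 fell in 3 groups and Ccl28 in DMBA+TAM. Ccl25 (ENSMUSG00000023235), which draws Ccr9-bearing lymphocytes and thymocytes, lies on chromosome 8 of GRCm38 from 4325210 to 4360020. It had 763 and 833 normalized CPM in control and 578 and 557 in TAM short. DMBA held 4.29 and 2.36, TAM long 8.28 and 4.42, and DMBA+TAM 1.58 and 2.64. The groups thus fell into a high pair and a low trio that did not overlap. Relative to control the log2 fold change was -7.88 (SE 0.34) in DMBA, -6.96 (SE 0.32) in TAM long and -8.52 (SE 0.41) in DMBA+TAM, with edgeR adjusted p of 3.69e-07, 4.65e-07 and 8.49e-08. In TAM short it was -0.49 (SE 0.24, adjusted p = 0.218). The same high pair carried the small intestine markers. DMBA+TAM was also lower than TAM long by 1.56 (adjusted p = 0.0239), a call lost with library size scaling (adjusted p = 0.0553), with only the groups compared (0.0539), and without TAM long replicate 1 (0.0898), DMBA+TAM replicate 1 (0.142) or replicate 2 (0.0693). Exons of Ccl25 share 204 bases with Elavl1 on the other strand, and the library kit did not mark strand, so reads there cannot be told apart.

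Ccr9, the receptor of Ccl25, moved in the same groups at a far lower level. It had 7.46 and 7.35 normalized CPM in control, 10.7 and 11.9 in TAM short, 1.07 and 0.674 in DMBA, 1.81 and 0.688 in TAM long, and 0.528 and 0.441 in DMBA+TAM. Both DMBA+TAM libraries rest on 1 read each. The log2 fold change against control was -3.04 (SE 0.41, adjusted p = 0.000274) in DMBA and -2.53 (SE 0.39, adjusted p = 0.000602) in TAM long; the latter was -3.40 without TAM long replicate 1. The ratio of control to DMBA+TAM was 15.4 (95% exact interval 4.18 to 129, counting error only). T cell markers (9 genes) summed to 51.4 and 62.7 normalized CPM in control, 111 and 112 in TAM short, and 18.4 to 29.1 in DMBA and TAM long. In DMBA+TAM they summed to 12.1 and 14.1, with Cd3d, Cd3e, Cd3g and Cd8b1 at 0, and of 8 tested there 1 was called higher and 5 lower than in control, against 29% and 35.3% of all genes.

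Ccl28, a mucosal ligand of Ccr10 and Ccr3 (chromosome 13, 119623819 to 119654354), behaved otherwise. It was present at 65.4 and 80.0 normalized CPM in control, 73.6 and 146 in DMBA, 65.8 and 83.7 in TAM short and 115 and 136 in TAM long. In DMBA+TAM it had 2.11 and 0, that is 4 reads in 1 library and none in the other. Its fall against control was -6.21 (SE 0.66, adjusted p = 1.88e-05), and without DMBA+TAM replicate 2 it was -5.12. Without replicate 1, the remaining library had no read. Among the other groups Ccl28 was not called. Ccl20, the ligand of Ccr6, ranged from 0.893 to 4.80 normalized CPM outside DMBA+TAM and had 0 and 0.881 there. It was called lower only against TAM short, at an adjusted p of 0.041 that rose to 0.067 with library size scaling and to 0.0564 to 0.182 without TAM short replicate 2, DMBA+TAM replicate 1 or replicate 2. Ccr10 ranged from 1.69 to 5.84 outside DMBA+TAM and had 0 and 0.441 there. Its adjusted p against control was 0.0487, and 0.11 with DESeq2, 0.089 with library size scaling and 0.0704 to 0.2 without any 1 of the 4 libraries.

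**Figure D4:**
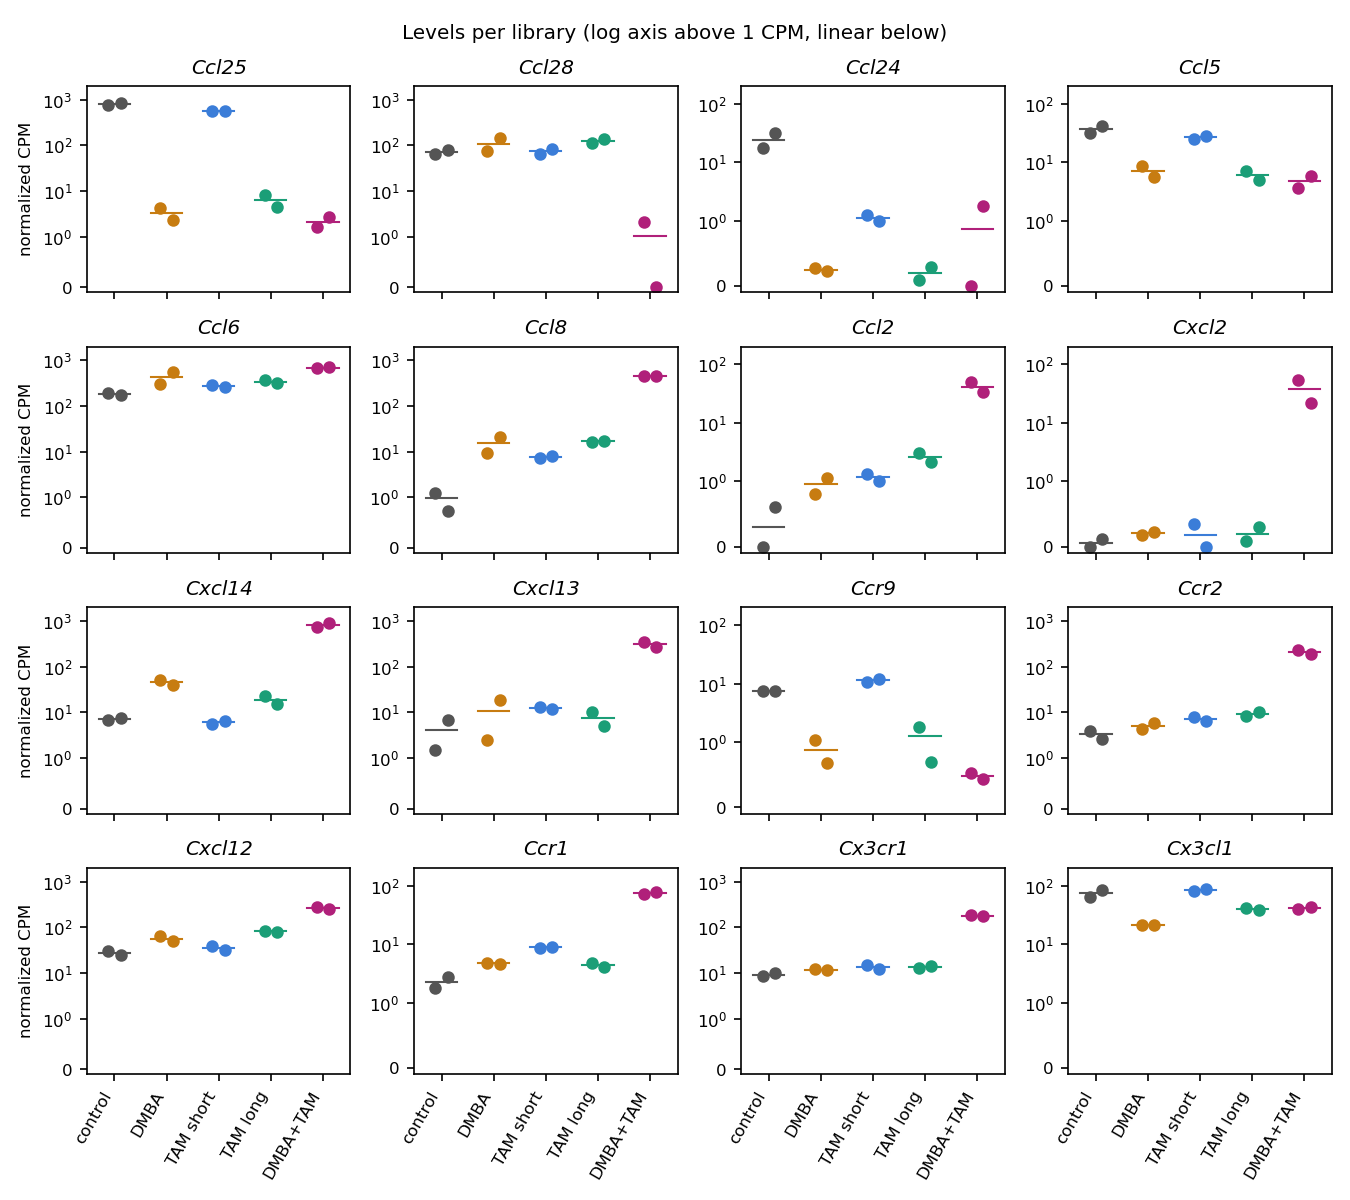
Normalized CPM (y axis, log above 1 and linear below) of 16 chemokine genes by group (x axis); points are libraries and lines are means of 2. Ccl25 separates control and TAM short from the rest, while Ccl8, Cxcl14, Cxcl13, Cxcl12, Ccr2, Ccr1 and Cx3cr1 are highest in both DMBA+TAM libraries.

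Ligands that attract monocytes through Ccr2 rose together in DMBA+TAM. Ccl8, a monocyte attractant that in mice also acts on Ccr8, had 1.24 and 0.723 normalized CPM in control and 451 and 463 in DMBA+TAM. The groups in between were 9.56 and 20.9 in DMBA, 7.34 and 7.95 in TAM short, and 16.4 and 17.1 in TAM long. Ccl8 and Ccr1 rose against control in all 4 other groups, and no other chemokine gene was called in all 4 in that direction. Its log2 fold change was 3.91 (SE 0.42) in DMBA, 2.93 (SE 0.45) in TAM short, 4.06 (SE 0.41) in TAM long and 8.83 (SE 0.41) in DMBA+TAM, with edgeR adjusted p of 6.31e-05, 0.00251, 4.7e-05 and 7.08e-08. Leaving out DMBA replicate 2 lowered the DMBA value to 3.24.

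Ccl2, Ccl7 and Ccl12, further ligands of Ccr2, were at or near the limit of detection in control. Ccl2 had 0 and 0.602 normalized CPM in control and 49.1 and 33.5 in DMBA+TAM, Ccl7 0.678 and 0.241 against 73.4 and 57.3, and Ccl12 0.791 and 0.241 against 44.3 and 37.4. Their log2 fold changes were 7.06 (SE 0.63), 7.08 (SE 0.53) and 6.25 (SE 0.58). These sizes depended on the control libraries: without control replicate 1 they were 6.03, 7.96 and 7.29, and without replicate 2 those of Ccl7 and Ccl12 were 6.52 and 5.63. No size can be given for Ccl2 there, since the control library left had no read. Ccl7 was also called higher in DMBA (2.27, SE 0.63) and in TAM long (2.43, SE 0.61), and Ccl2 in TAM long (3.09, SE 0.71), at 1.16 to 3.59 normalized CPM. The Ccl7 calls were lost without control replicate 2 (adjusted p = 0.108 in DMBA, 0.0837 in TAM long), and the first of them also without DMBA replicate 2 (0.0925) and with only the groups compared (0.0601). The DMBA value of Ccl7 was 3.17 without control replicate 1, 2.88 without DMBA replicate 1 and 1.28 without DMBA replicate 2, and its TAM long value 3.33 without control replicate 1. The TAM long value of Ccl2 was 2.08 without control replicate 1, and without replicate 2 it has no size for the same reason. With counts thinned to the smallest library the calls of Ccl2 (adjusted p = 0.0996) and Ccl7 (0.0786) in TAM long and of Ccl7 in DMBA (0.0547) were lost.

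Eosinophil attractants of the same family went different ways. Ccl24, or eotaxin-2, had 17.8 and 31.0 normalized CPM in control, 1.24 and 1.01 in TAM short, 0.268 and 0.225 in DMBA, 0.0863 and 0.295 in TAM long, and 0 and 1.76 in DMBA+TAM. It was therefore high in the control libraries only. In TAM short 7 of 10 small intestine markers were also called lower than in control and 1 higher, against 7.8% and 6.52% of all genes (summed normalized CPM 20458 and 22716 against 38718 and 41723), and their part in the fall of Ccl24 was not tested. The log2 fold change against control was -4.41 (SE 0.49, adjusted p = 0.000447) in TAM short, -6.53 (SE 0.60, adjusted p = 2.43e-05) in DMBA, -6.93 (SE 0.61, adjusted p = 1.99e-05) in TAM long and -4.65 (SE 0.65, adjusted p = 0.000145) in DMBA+TAM. The TAM long value was -6.30 without TAM long replicate 1 and -7.90 without replicate 2. The DMBA+TAM value was -3.80 without replicate 1, and without replicate 2 the remaining library had no read. Ccl11, or eotaxin-1, had 18.7 and 15.2 in control, 5.76 and 3.91 in TAM short, and 58.1 and 48.5 in DMBA+TAM. It fell by 1.80 on the log2 scale in TAM short (SE 0.23, adjusted p = 0.00102) and rose by 1.65 in DMBA+TAM (SE 0.22, adjusted p = 8.94e-05). Its value in TAM long was -0.66 (adjusted p = 0.0297), which was lost with library size scaling (0.208), with limma on FPKM (0.23), and without control replicate 1 (0.179) or TAM long replicate 1 (0.168). Ccr3, their receptor, had at most 1.76 normalized CPM in any library and was not tested.

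Ccr2 and Ccr1, receptors for CC ligands of monocytes, rose in DMBA+TAM against every other group. Ccr2 had 3.96 and 2.65 normalized CPM in control, 4.38 and 5.73 in DMBA, 7.80 and 6.31 in TAM short, 8.11 and 9.93 in TAM long, and 233 and 191 in DMBA+TAM. Ccr1, which binds Ccl3, ranged from 1.81 to 9.09 in the other groups and had 71.8 and 78.0. For each of these both libraries of DMBA+TAM lay above all others. Against control the log2 fold changes were 5.99 (SE 0.24) and 5.03 (SE 0.23), with edgeR adjusted p of 3.13e-08 and 6.08e-08. Both were kept with each library left out. The macrophage markers rose in the same libraries (from 232 and 286 to 7513 and 7964 summed normalized CPM), and 5 general leukocyte markers went from 89.8 and 153 to 1181 and 1253.

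Other inflammatory CC ligands also rose, with 1 exception. Ccl6 and Ccl9, ligands of Ccr1 made by myeloid cells, were already abundant in control. Ccl6 had 196 and 172 normalized CPM in control, 298 and 546 in DMBA, 286 and 263 in TAM short, 366 and 317 in TAM long, and 686 and 701 in DMBA+TAM. Against control the log2 fold change was 1.20 (SE 0.24) in DMBA, 0.90 (SE 0.24) in TAM long and 1.92 (SE 0.24) in DMBA+TAM, with adjusted p of 0.00248, 0.0117 and 6.93e-05. The TAM long call was lost without control replicate 2 (0.0971) or TAM long replicate 1 (0.0707). Ccl9 ranged from 29.9 to 50.6 in the other 8 libraries and had 298 and 327 in DMBA+TAM (log2 fold change 3.00, SE 0.24, adjusted p = 2.57e-06 against control).

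Ccl3, Ccl4, Ccl17 and Ccl22 were scarce outside DMBA+TAM. Ccl3, an attractant of monocytes and T cells, had at most 0.604 normalized CPM in the other libraries and 29.6 and 12.8 in DMBA+TAM. Against control the log2 fold change was 6.09 (SE 0.78), and 5.37 without control replicate 1, 7.32 without control replicate 2 and 5.35 without DMBA+TAM replicate 1. Ccl4 had at most 1.81 elsewhere and 5.28 and 4.41. Ccl17 and Ccl22, ligands of Ccr4 made by dendritic cells and macrophages, had at most 0.757 and 3.16 elsewhere and 12.1 and 7.05, and 5.81 and 9.69, in DMBA+TAM. Their log2 fold changes against control were 3.01 (SE 0.60), 4.30 (SE 0.54) and 2.96 (SE 0.47). Ccl3 and Ccl17 passed the filter on low counts through DMBA+TAM, so their calls say nothing beyond their values. Ccr4 itself had no read in DMBA+TAM, which allows up to 1.58 and 1.32 normalized CPM, and its highest library was TAM short replicate 1 at 1.92. Dendritic cell markers (6 genes) summed to 63.4 and 65.5 in DMBA+TAM and 6.67 to 14.3 elsewhere.

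Ccl5, an attractant of T cells and monocytes, fell in 3 groups. It had 31.3 and 42.2 normalized CPM in control and 25.0 and 28.5 in TAM short. DMBA had 8.75 and 5.62, TAM long 6.99 and 5.01, and DMBA+TAM 3.70 and 5.73. The log2 fold change against control was -2.34 (SE 0.26) in DMBA, -2.61 (SE 0.27) in TAM long and -2.94 (SE 0.34) in DMBA+TAM, with edgeR adjusted p of 8.42e-05, 4.72e-05 and 3.9e-05. Each was kept with every library left out in turn. The T cell markers given above were likewise lower in these 3 groups than in control and TAM short.

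CXC ligands with an ELR sequence, which attract neutrophils through Cxcr2, were nearly silent outside DMBA+TAM. Their genes form a cluster on chromosome 5 of GRCm38 (Cxcl5, Cxcl3, Cxcl15, Cxcl1 and Cxcl2, from 90759360 to 90905938). A match to the NF-kB motif GGGANNTTCC (both strands searched) was found in the promoter windows that RefSeq gives for the starts of Cxcl1, Cxcl2 and Cxcl3, which run from 250 bases before to 50 after the start on GRCm38.p6. Windows were found for 41 of the 57 symbols, 48 windows in all, and 6 of the 48 held the motif (the others were those of Ccl1, Ccr3 and Cxcl10), against 1.47% of 32851 windows of all genes. The TATA motif TATAAA, searched on the strand of the gene only, was in 10 of the 48 and in 8.32% of all. The last 110 bases before the start are shown for these 3 because each holds the same 11-base stretch, matched on both strands and set in capitals, at 71, 97 and 73 bases before the start.
Cxcl1, chr5:90891135-90891244, plus strand: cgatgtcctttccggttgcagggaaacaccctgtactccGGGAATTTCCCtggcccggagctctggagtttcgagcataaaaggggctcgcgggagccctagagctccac
Cxcl2, chr5:90903789-90903898, plus strand: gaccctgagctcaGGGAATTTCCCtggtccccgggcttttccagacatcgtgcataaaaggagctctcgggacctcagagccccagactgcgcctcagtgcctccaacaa
Cxcl3, chr5:90785991-90786100, plus strand: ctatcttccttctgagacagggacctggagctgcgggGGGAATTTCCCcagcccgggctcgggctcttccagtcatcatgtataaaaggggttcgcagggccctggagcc

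Cxcl2 stood at 53.3 and 21.6 normalized CPM in DMBA+TAM, while no other library exceeded 0.339. The 2 control libraries held 1 read between them. The ratio to control was 618 (95% exact interval 109 to 24557, counting error only), and the fitted log2 fold change was 8.97 (SE 0.91, adjusted p = 1.45e-05). It was 8.19 without DMBA+TAM replicate 1, and 8.07 without control replicate 1. Without control replicate 2 the control library left had no read. Cxcl1 had 8.97 and 5.29 in DMBA+TAM and 1.02 and 0.120 in control (log2 fold change 3.57, SE 0.75, adjusted p = 0.00208). It was 5.67 without control replicate 1 and 2.75 without control replicate 2, with adjusted p up to 0.0229. Cxcl5, the third, had 11.6 and 4.85 against 0.226 and 0.361 (4.72, SE 0.70, adjusted p = 0.000199), and 3.96 without DMBA+TAM replicate 1. These genes were so low elsewhere that they passed the filter on low counts through DMBA+TAM, so their count says nothing beyond their values.

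Cxcl3, with the same promoter stretch, reached 1.58 and 1.32 normalized CPM in DMBA+TAM, which is 3 reads in each library, and had 1 read in the other 8 libraries together. It was not tested. Cxcl15 had reads in the control libraries alone, 0.791 and 0.120 normalized CPM. The receptor Cxcr2 had 4.22 and 5.73 in DMBA+TAM and at most 0.447 elsewhere. Its ratio to control was 86.5 (95% exact interval 13.9 to 3576, counting error only) and its adjusted p was 8.83e-05. Cxcr2 too passed the filter on low counts through DMBA+TAM, so this call says nothing beyond its values. Its log2 fold change against control was 6.09, and 5.25 without control replicate 2. Without control replicate 1 the control library left had no read. Cxcr1 had a single read in all. Neutrophil markers (6 genes) summed to 84.1 and 108 in DMBA+TAM, 7.68 and 62.8 in DMBA, 16.2 and 40.3 in TAM long and 1.08 to 2.03 in control and TAM short. Of 4 tested, 3 were called higher in DMBA+TAM than in control, against 29% of all genes, and Ly6g was at 0 in DMBA+TAM, control and TAM short.

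Interferon-induced CXC ligands, which attract activated T cells through Cxcr3, did not move as a group. Cxcl10 had 1.02 and 2.53 normalized CPM in control, 4.29 and 4.54 in TAM short, 1.61 and 1.01 in DMBA, 0.776 and 0.295 in TAM long, and 6.86 and 13.2 in DMBA+TAM. Between the last group and control the log2 fold change was 2.52 (SE 0.55, adjusted p = 0.00268), 3.26 without control replicate 2 and 1.93 without DMBA+TAM replicate 2. Exons of Cxcl10 share 133 bases with Art3 on the other strand. Cxcl11 had 6.44 and 7.23 in control, 8.47 and 7.82 in TAM short, 2.41 and 1.35 in DMBA, 3.71 and 0.688 in TAM long, and 0.528 and 0 in DMBA+TAM. Against control the ratio to DMBA+TAM, where 1 read was counted, was 28.4 (95% exact interval 5.00 to 1132, counting error only), and its adjusted p of 0.0065 became 0.0624 without DMBA+TAM replicate 2. Cxcl11 was also lower than control in DMBA (-1.83, adjusted p = 0.028) and in TAM long (-1.60, adjusted p = 0.044), and both calls were lost with library size scaling (0.0656 and 0.101), and in 3 of 4 leave-outs each, at 0.0885 to 0.118 without control replicate 1, control replicate 2 or DMBA replicate 2 and at 0.124 to 0.178 without control replicate 1, control replicate 2 or TAM long replicate 2. DESeq2 (0.0567), limma (0.053) and only the groups compared (0.055) also lost the TAM long call, whose value was -3.29 without TAM long replicate 1 and -0.89 without replicate 2. Cxcl9 ranged from 2.85 to 16.0 with its highest values in TAM short, at 14.9 and 16.0.

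The promoter window of Cxcl10 held both the NF-kB motif and the interferon response motif GAAANNGAAA (both strands searched), and it alone of the 48 chemokine windows did. The interferon motif was present in 3 of the 48 windows (those of Ccl19, Cxcl10 and Cxcl14), against 3.44% of all windows. The stretch from 220 to 140 bases before the start is shown with both matches in capitals.
Cxcl10, chr5:92349030-92349109, minus strand: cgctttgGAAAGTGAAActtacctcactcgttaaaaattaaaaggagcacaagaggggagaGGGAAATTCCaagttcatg

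Cxcr3, the receptor, had 2.11 and 4.85 normalized CPM in DMBA+TAM and 0.393 to 1.39 elsewhere. It was called higher against control at 2.72 (SE 0.60, adjusted p = 0.00271), and the value was 1.95 (adjusted p = 0.0706) without DMBA+TAM replicate 2. Its call against DMBA (1.83) was lost in 3 of 4 leave-outs (0.051 to 0.303), that against TAM short (1.56) in 3 of 4 (0.0764 to 0.428) and that against TAM long (2.91) without DMBA+TAM replicate 2 (0.057). DESeq2 also lost the calls against DMBA (0.0522) and TAM short (0.096), as did the fit without the filter (0.0516 and 0.109).

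CXC ligands made by tissue cells rose in DMBA+TAM. Cxcl14, made by fibroblasts and epithelium, had 6.78 and 7.35 normalized CPM in control, 5.65 and 6.31 in TAM short, 51.3 and 40.0 in DMBA, 22.6 and 15.1 in TAM long, and 738 and 886 in DMBA+TAM. The order was DMBA+TAM, DMBA, TAM long and then control and TAM short, and these last groups did not differ by the test. Its log2 fold change against control was 2.69 (SE 0.22) in DMBA, 1.42 (SE 0.22) in TAM long and 6.84 (SE 0.25) in DMBA+TAM, with edgeR adjusted p of 1.22e-05, 0.000654 and 2.22e-08. It was lower in TAM long than in DMBA by -1.27 (SE 0.20, adjusted p = 0.0145), a call lost with only the groups compared (0.156) and without TAM long replicate 2 (0.0713).

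Cxcl12, which retains stem cells and leukocytes through Cxcr4, rose in 3 groups. It had 30.2 and 25.1 normalized CPM in control, 39.2 and 32.4 in TAM short, 63.7 and 49.8 in DMBA, 83.9 and 79.7 in TAM long, and 278 and 257 in DMBA+TAM. The log2 fold change against control was 1.04 (SE 0.16) in DMBA, 1.57 (SE 0.16) in TAM long and 3.28 (SE 0.17) in DMBA+TAM, each kept with every library left out. Cxcr4 had 1.81 and 3.25 in control and 37.5 and 27.8 in DMBA+TAM (3.68, SE 0.39, adjusted p = 2.01e-05). Its rise in DMBA (1.13, adjusted p = 0.0371) was lost without control replicate 1 (0.234) or DMBA replicate 2 (0.196) and with only the groups compared (0.0831). Fibroblast markers were called higher for 10 of 10 genes in DMBA+TAM, 9 of 10 in DMBA and 5 of 10 in TAM long, where 1 was lower, against control. Over all genes the shares called higher were 29%, 24.5% and 23.2%. Smooth muscle markers (6 genes) were called higher for 6 of 6 in DMBA and in TAM long, with a median log2 fold change of 2.73 and 2.86 against 0.76 and 0.46 for the fibroblast markers, and in DMBA+TAM 2 were higher and 3 lower. The part of either list in these rises was not tested.

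Cxcl13, the attractant of B cells through Cxcr5, had 345 and 276 normalized CPM in DMBA+TAM. Elsewhere its replicates differed widely: 1.47 and 6.62 in control and 2.50 and 18.8 in DMBA, against 13.1 and 11.7 in TAM short and 10.4 and 4.91 in TAM long. The rise against control was 6.27 (SE 0.84, adjusted p = 9.89e-05), 5.52 without control replicate 1 and 7.67 without control replicate 2. Cxcr5 did not follow: it had 1.06 and 0 in DMBA+TAM and 1.02 to 4.94 elsewhere. In DMBA+TAM 7 markers of B and plasma cells summed to 279 and 311 normalized CPM, against 709 to 1715 in the other libraries.

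Lymphoid tissue ligands bind Ccr7. Ccl21a had 12.9 and 9.64 normalized CPM in control, 25.9 and 44.3 in DMBA, 27.5 and 19.8 in TAM short, 25.6 and 27.8 in TAM long, and 1.58 and 0 in DMBA+TAM. It rose in DMBA (1.63, SE 0.33, adjusted p = 0.00271) and in TAM long (1.24, SE 0.33, adjusted p = 0.0116), and the latter call was lost without control replicate 2 (0.111) or TAM long replicate 2 (0.0622). In DMBA+TAM, with 3 reads in all, control exceeded it 15.7 times (95% exact interval 5.29 to 76.8, counting error only); the fitted value was -3.93, and -2.85 without replicate 2. Ccl19 had 1.06 and 2.20 in DMBA+TAM and no read in TAM long. Its DMBA libraries had 0.0893 and 2.92. Its call against TAM long (at least 5.89-fold higher, computed against 3 counts per library, adjusted p = 0.0363) was lost when any 1 of the 4 libraries was left out (0.066 to 0.188). Ccr7 had 10.03 and 5.29 in DMBA+TAM and at most 2.15 elsewhere (log2 fold change 4.93 against control, SE 0.94, adjusted p = 0.00115), and 5.77 without control replicate 1. Its calls against DMBA (2.64) and TAM short (2.24) were lost without DMBA+TAM replicate 1 (0.111 and 0.171); the former also without DMBA replicate 1 (1.82, adjusted p = 0.0504), the latter also without TAM short replicate 1 (2.86, adjusted p = 0.0506) or 2 (0.15). Without DMBA replicate 2 the value against DMBA was 4.33.

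Both membrane-bound ligands were measured with their receptors. Cx3cl1, or fractalkine, had 64.3 and 82.6 normalized CPM in control, 79.7 and 86.1 in TAM short, 21.3 and 21.1 in DMBA, 41.1 and 38.3 in TAM long, and 39.6 and 42.7 in DMBA+TAM. It fell against control by 1.79 in DMBA (SE 0.14, adjusted p = 9.35e-06), 0.89 in TAM long (SE 0.14, adjusted p = 0.000574) and 0.83 in DMBA+TAM (SE 0.15, adjusted p = 0.000679), in log2 units. The call in DMBA+TAM was lost with library size scaling (0.0808) and limma on FPKM (0.0562). It was higher in TAM long than in DMBA by 0.91 (adjusted p = 0.0131), a call lost without TAM long replicate 1 (0.144) or 2 (0.059) and with only the groups compared (0.108).

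Cx3cl1 was higher in DMBA+TAM than in DMBA (log2 fold change 0.96), as was its receptor Cx3cr1 (3.93), which is carried by gut macrophages. Against control, where Cx3cl1 was called lower in DMBA+TAM, Cx3cr1 rose. It had 8.48 and 9.76 normalized CPM in control, 12.1 and 11.5 in DMBA, 14.6 and 12.5 in TAM short, 13.1 and 14.3 in TAM long, and 182 and 177 in DMBA+TAM. The rise against control was 4.30 (SE 0.14, adjusted p = 1.69e-08). Cxcl16 had 20.8 and 31.3 in control, 14.0 and 16.7 in DMBA, and 129 and 126 in DMBA+TAM, with a rise of 2.29 (SE 0.20, adjusted p = 4.92e-06). Its fall in DMBA (-0.76, adjusted p = 0.0109) was lost with library size scaling (0.0702), with limma (0.107) and without control replicate 2 (0.111) or DMBA replicate 1 (0.057). Exons of Cxcl16 share 552 bases with Zmynd15 on the other strand. Cxcr6, its receptor, had 5.81 and 8.37 in DMBA+TAM and 9.26 and 9.34 in TAM short against 3.39 and 3.25 in control. The DMBA+TAM call (1.10, adjusted p = 0.0261) was lost without control replicate 1 (0.0826), control replicate 2 (0.0951) or DMBA+TAM replicate 2 (0.223).

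In the XC family little was measured. Xcr1, a receptor of cross-presenting dendritic cells, had 0.226 and 0.361 normalized CPM in control and 0.536 and 0 in DMBA. It had 1.69 and 0.505 in TAM short and 1.73 and 1.08 in TAM long. In DMBA+TAM it had 2.11 and 2.20, 4 and 5 reads, and it was not called there against TAM short or TAM long. Its call against control (2.82, adjusted p = 0.0425) was lost when any 1 of the 4 libraries was left out (0.104 to 0.159). Xcl1 ranged from 0 to 1.43 and Ccr6 from 0 to 1.89. The skin ligand Ccl27a ranged from 0.723 to 3.93 normalized CPM over all libraries. Of the genes not tested, Ccr8, Ccl1, Ccl26 and Cxcl17 had at most 1.58 normalized CPM in any library.

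Between TAM short and control, 6 of 15 tested receptors and 3 of 31 tested ligands were called higher, against 6.52% of all genes. The difference between receptors and ligands was not tested. Ccr1, Ccr2, Ccr4, Cxcr6 and Cx3cr1 rose, as did the ligands Ccl8, Ccl22 and Cxcl9, and Ccl24 and Ccl11 fell. Ccr1 rose by 1.94 (SE 0.23, adjusted p = 0.000599), at 8.47 and 9.09 normalized CPM against 1.81 and 2.77. Cxcr6 rose by 1.48 (SE 0.32, adjusted p = 0.0138) and Ccr2 by 1.09 (SE 0.25, adjusted p = 0.0187). Calls of Ccl8, Ccr1, Ccl11 and Ccl24 were kept with each library left out, but that of Ccr1 was lost with counts thinned to the smallest library (1.56, adjusted p = 0.12). The other 7 calls were lost in 2 or more of 4 leave-outs, and the number of calls without control replicate 1 or 2 or TAM short replicate 1 or 2 was 6, 5, 5 and 5. Without control replicate 1, for example, the adjusted p was 0.0963 for Cxcr6, 0.186 for Cxcl9, 0.191 for Ccr4 and Ccl22 and 0.18 for Cx3cr1, and without control replicate 2 it was 0.151 for Ccr2. In the same libraries the T cell markers summed to 111 and 112 normalized CPM against 51.4 and 62.7 in control, and the leukocyte markers to 293 and 325 against 89.8 and 153. Ifng had 3.00 ± 0.572 (SD, n = 2) in TAM short and 0.0602 ± 0.0852 in control.

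DMBA and TAM long were compared with the same control libraries, so a call found in each is not independent evidence. Ccr1, Ccl6, Ccl21a, Ccl7, Ccl8, Cxcl12 and Cxcl14 were called higher, and Ccr9, Ccl25, Ccl5, Cxcl11, Ccl24 and Cx3cl1 lower, in each comparison with control. Beside the values above, Ccr1 rose by 1.04 (SE 0.24) in DMBA and 0.94 (SE 0.24) in TAM long, at 4.03 to 4.82 normalized CPM. Both calls were lost without control replicate 1 (0.0513 and 0.0965), that in DMBA also with only the groups compared (0.0579) and that in TAM long also without TAM long replicate 1 (0.0585). In TAM long, Ccr2 rose by 1.44 (SE 0.24, adjusted p = 0.00101) and Cx3cr1 by 0.58 (adjusted p = 0.00722, and 0.0719 without control replicate 1 or 0.0595 without TAM long replicate 2). These libraries also share the colon markers given above, so treatment and gut segment cannot be told apart in them.

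To compare genes with each other, the FPKM of the authors, per length, were scaled to the TMM totals. The summed FPKM of the 44 ligands was 3141 ± 25.1 in DMBA+TAM, 1510 ± 76.8 in control, 1315 ± 40.0 in TAM short, 732 ± 237 in DMBA and 646 ± 48.4 in TAM long (SD, n = 2). Ccl25 made up 68.6% ± 0.730 of that sum in control and 56.1% ± 0.249 in TAM short, and Ccl6 13.8% ± 1.97 and 23.5% ± 0.701. In DMBA and TAM long the leading ligand was Ccl6, with 64.1% ± 6.27 and 59.7% ± 1.52. In DMBA+TAM the order was Ccl8 at 28.5% ± 0.748, Ccl6 at 24.9% ± 0.576, Cxcl14 at 14.2% ± 1.94 and Cxcl13 at 8.59% ± 1.27, and these neighbours lay apart by more than their SDs. The summed FPKM of the 18 receptors was 358 ± 24.8 in DMBA+TAM, 38.7 ± 3.09 in TAM short, 20.5 ± 0.789 in TAM long, 20.6 ± 4.02 in DMBA and 16.5 ± 1.81 in control. In DMBA+TAM Ccr2 held 16.7% ± 1.17 of it and Cx3cr1 14.6% ± 0.697. In control Cx3cr1 held 16.1% and Ccr9 14.7%, which lay within the SD of Ccr9 (1.78).

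**Figure D5:**
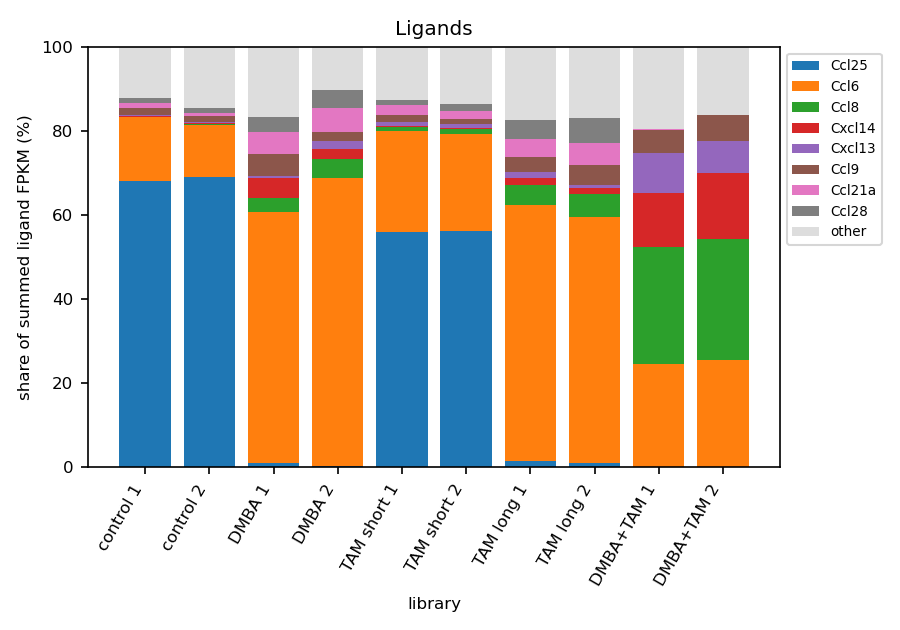
Share of the summed FPKM (y axis, %) of 44 ligands in each library (x axis), with the 8 ligands of highest share in colours and the rest in grey. Ccl25 fills 68.6% of the sum in control on average, and Ccl8 fills 28.5% in DMBA+TAM.

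Chemokine genes less than 500 kb apart were joined into clusters, which gave 7 clusters of at least 3. In DMBA+TAM against control, 4 of the 7 held calls in both directions. Of all tested chemokine genes 63% were called higher and 19.6% lower, and of all genes 29% and 35.3%. How often other groups of neighbouring genes hold both directions was not tested. On chromosome 11 from 82035571 to 82305690 (Ccl2, Ccl7, Ccl11, Ccl12, Ccl8 and the untested Ccl1), all of 5 tested genes rose in DMBA+TAM against control. In the next cluster, from 83525778 to 83664683, Ccl9, Ccl6, Ccl3 and Ccl4 rose and Ccl5 fell. Among the receptor genes on chromosome 9 from 123678439 (Ccr9) to 124113557 (Ccr2), Cxcr6, Xcr1, Ccr1 and Ccr2 rose, Ccr9 fell and Ccr3 was not tested. The pair Cxcl10 and Cxcl11, both within 92321347 to 92365485 on chromosome 5, went opposite ways, as did Ccl22 and Ccl17 against Cx3cl1 between 94745590 and 94812035 on chromosome 8. In the cluster on chromosome 4 from 41769467 to 42773993, 1 of 3 tested genes, Ccl21a, fell and none rose.

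Genes that act with chemokines were taken from lists written for the purpose, and their counts in DMBA+TAM against control stand beside 29% of all genes called higher and 35.3% lower. Of 7 atypical and decoy receptors, which bind chemokines without classical signalling, 5 rose and 1 fell in DMBA+TAM against control. Ackr3, which scavenges Cxcl12, went from 7.65 ± 0.589 to 115 ± 3.48 normalized CPM (3.91, SE 0.16, adjusted p = 4.27e-08). Ackr4, which scavenges Ccl19, Ccl21 and Ccl25, went from 8.48 ± 1.77 to no read in DMBA+TAM. Pf4, a chemokine outside the naming rule, went from 1.63 ± 0.0730 to 53.2 ± 6.10 (5.01, SE 0.32, adjusted p = 5.1e-07). Among 12 genes of chemokine processing and presentation, 8 rose and 2 fell. Dpp4, a protease that trims chemokines and sits on the enterocyte brush border, stood at 1383 ± 117 normalized CPM in control, and its log2 fold change was -4.18 in DMBA+TAM, -5.04 in DMBA and -5.69 in TAM long. Of 17 genes of receptor signalling, 9 rose and 4 fell, with Dock2, a leukocyte guanine exchange factor, at 3.88 (SE 0.34).

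Of 14 tested inducers of chemokine transcription, 6 rose and 5 fell in DMBA+TAM against control, against the same 29% and 35.3% of all genes. Il1b went from 0.396 ± 0.560 to 32.9 ± 14.7 normalized CPM (6.28, SE 0.84, adjusted p = 9.99e-05), and Il6, with no read in control, had 8.50 ± 1.42. Il6 had no read in TAM short or TAM long either, so it may have passed the filter on low counts through DMBA+TAM. Ifng, with no read in DMBA+TAM, may likewise have passed through TAM short. The counts of these inducers were not computed without them. Irf1, a factor induced by interferon, fell from 223 ± 8.48 to 43.5 ± 0.235 in DMBA+TAM (-2.36, SE 0.13, adjusted p = 2.22e-07) and stood at 505 ± 44.3 in TAM short (1.18, SE 0.12, adjusted p = 0.000242). Between TAM short and control 5 of these genes rose and none fell, against 6.52% and 7.8% of all genes.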

How the data were processed

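RNA was extracted from organoids, poly-A selected and sequenced from NEBNext Ultra libraries, whose kit does not mark strand. The authors mapped reads with TopHat 2.0.12 and counted reads per gene with HTSeq 0.6.1 (build GRCm38.p6 in the submitters' processing notes). The deposited table holds counts per gene and the authors' FPKM, which use a fixed length per gene, together with the gene length and p-values of the authors' own comparisons, which were not used. Of its 47074 lines, 5 were the remainders of split lines without counts and were left out.

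Counts were fitted with edgeR 4.0.16 in R 4.3.3 (filterByExpr, TMM factors 0.832 to 1.19, quasi-likelihood, a mean for each of 5 groups over all 10 libraries, Benjamini-Hochberg over 16179 genes, threshold 0.05). In data simulated for DMBA+TAM against control, this recovered 66.5% of 200 genes changed 4-fold with 4.32% false calls (15417 genes tested). There the other genes had the same mean in every group, and as many genes were raised as lowered. In the measured data 29% of all genes were called higher and 35.3% lower, so the simulation cannot give the rate of false calls in them. Alternatives were DESeq2 1.42.0, limma 3.58.1 on log2(FPKM + 1), library size scaling, no filter, only the groups compared, a replicate block, each library left out (a group left with 1 library is assumed to vary like the others) and, added after the data were seen, counts thinned to 1592366. The genes, lists and tests were chosen with earlier results of these data known. Any member could be named; values per library went first to those called in at least 1 comparison and reaching 5 normalized CPM in a group. Promoters came from RefSeq windows on GRCm38.p6, exon overlaps from GENCODE M21. Intervals cover counting error only. Tables and figures used Python 3.11.15, pandas 2.3.3, SciPy 1.17.1 and matplotlib 3.10.9. Of the genes counted above, 1 receptor and 1 marker are not reported here.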

Additional observations from a re-analysis of the deposited data

How the results depend on the processing

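No called direction among the chemokine genes turned under any alternative run: of 1256 values recomputed with another tool, scaling, filter, sample set or depth, 1197 kept their call and 59 lost it, and of 740 with a library left out 629 kept it and 111 lost it. Between TAM short and control 11 genes were called, 21 without the filter, 23 with only the groups compared, 3 with thinned counts, and 5 to 6 with a library left out. Between TAM long and DMBA 2 genes were called, 4 with DESeq2, 7 without the filter, 0 with only the groups compared, 0 with thinned counts, and 0 to 5 with a library left out. In the fits of edgeR with 0 calls, 5, 7 and 10 genes had an unadjusted p under 0.05 (only the groups compared, thinned counts, and without TAM long replicate 2). Calls without an adjusted p in an alternative run are in none of the counts of kept and lost calls. The direction of such calls was not checked there. With thinned counts 129 of the 185 calls were kept and 22 lost, and the others had no adjusted p. Between TAM long and control 17 were called and 11 with thinned counts, where 31 chemokine genes were tested instead of 46. The cause of these shifts was not tested. Replicate numbers did not pair the samples (correlations of same-numbered deviations from -0.0602 to 0.323), and a fit with the replicate number as a block called 38 genes in DMBA+TAM against control, as did the fit without it, and lost 1 call of 185, that of Ccl22 in TAM short against control (adjusted p = 0.0505). The summed normalized CPM of the 62 genes was 1383 in control, 1294 in TAM short, 817 in TAM long and 4049 in DMBA+TAM. In DMBA it was 868, with an SD of 237 (n = 2). On library totals these sums were, in the same order, 1168, 1163, 861, 4808 and 894. Depth limits the low genes of DMBA+TAM, where 3 reads are 1.32 to 1.58 normalized CPM.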
